A study of Danio rerio with 18 samples.

Results

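The genes described here are 8 ligands and receptors of the epidermal growth factor (EGF) receptor family. They comprise the ligand genes hbegfa, hbegfb, tgfa and egf and the receptor genes egfra, erbb2, erbb3a and erbb3b. They were picked by name from the deposited tables, where all 8 had a row among 34326 genes, and 7 passed the filter on low counts and were tested among 20093 genes. The family was taken up because hbegfa had been seen to be higher after ablation at 2 and 4 days post-injury (dpi). The values of hbegfa at those times are therefore given as a description, with no p-value, and nothing is read from its calls there. The other 7 genes are its relatives and receptors by name.

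Ligands of this family are mostly made as membrane-anchored precursors that a protease of the ADAM group sheds from the cell surface. HB-EGF, TGF-alpha, EGF, betacellulin, amphiregulin and epigen bind the EGF receptor, and neuregulins bind ErbB3 and ErbB4. Binding makes the receptors dimerise, with ErbB2 as a partner that has no ligand of its own, and ErbB3 is a receptor with little kinase activity that signals through its partner. The dimers act through adaptor proteins on the RAS, MEK and ERK kinases and on PI3 kinase and Akt. HB-EGF is a known wound signal of epithelia, and in zebrafish retina hbegfa is known from Müller glia after injury. Roles given below are mostly known from mouse and human counterparts.

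The retinal pigment epithelium (RPE) is the pigmented cell layer behind the photoreceptors. RNA was sequenced in bulk from at most 1000 eGFP-positive cells per library, which had been sorted from dissociated eyes of zebrafish larvae, and the sorted tissue is labelled as RPE. In the ablated groups (MTZ+), the RPE had been destroyed with 10 mM metronidazole given over 24 h from 5 to 6 days post fertilisation (dpf), and cells were taken at 2, 4 and 7 dpi. The unablated groups (MTZ-) were taken at the same times, and each of the 6 groups had 3 libraries. Pigment formation had been blocked in all larvae with 1.5X phenylthiourea between 0.25 and 5 dpf. The labels name neither the strain, the transgene and its promoter, nor a group given the drug without ablation, so effects of drug and ablation cannot be told apart. Controls were sorted on eGFP as well. Nothing says that the 3 libraries of a group came from separate clutches, and p-values measure the spread between these libraries.

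Total counts ran from 21870245 to 60377642 per library, and mitochondrially encoded genes took 3.63 to 12.9% of counts. All 20 measured RPE markers had counts in every group. Their summed level was 83570 to 91830 CPM in ablated libraries and 139400 to 190300 CPM in unablated ones at 2 dpi, and the groups overlapped at 4 and 7 dpi. CPM are counts relative to library sizes scaled by TMM, and they compare libraries for 1 gene. The TMM factors ran from 0.637 to 1.23, with 0.637 to 0.781 in replicates 2 and 3 of both groups at 2 dpi. TPM, the deposited abundance that allows for transcript length, is used where genes are compared with each other. In bulk libraries, fewer cells of a type and less RNA per cell cannot be told apart. Log2 fold changes are ablated over unablated from edgeR's quasi-likelihood test and carry a standard error (SE). Adjusted p-values follow Benjamini and Hochberg over all 20093 genes, with a threshold of 0.05. Same-numbered ablated and unablated libraries deviated together, so results of the same model with these pairs as a block are given where they changed a call.

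Among the ligand genes, hbegfa had the highest level on the TPM scale in ablated libraries at every time. The gene (ENSDARG00000075121, chromosome 14, 6742203 to 6745213, plus strand, GRCz10) encodes a membrane-anchored heparin-binding ligand of the EGF receptor. At 2 dpi its level was 123, 158 and 155 CPM in ablated libraries 1 to 3, against 21.1, 20.4 and 15.1 CPM in unablated libraries. At 4 dpi it was 78.5, 36.2 and 40.2 CPM in ablated libraries, against 12.9, 6.67 and 3.01 CPM in unablated libraries. At 7 dpi it was 31.8, 47.4 and 35.7 CPM in ablated libraries, against 11.9, 4.35 and 10.0 CPM in unablated libraries. No ablated library fell within the range of the unablated ones at any of the 3 times. Such separation upward was seen in 10.5% of tested genes at 2 dpi, 13.7% at 4 dpi and 4.28% at 7 dpi. Separation upward at all 3 times was found in 99 genes, 0.493% of those tested, hbegfa and nrg1 among them. For hbegfa the values at 2 and 4 dpi led to its choice, so its place among these genes is a description. Its separation at 7 dpi was not what led to that choice. The family was still chosen with earlier results of these data known, so 7 dpi is no independent check.

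The log2 fold change of hbegfa was 2.95 (SE 0.52) at 2 dpi and 2.77 (SE 0.51) at 4 dpi. At 7 dpi, whose values were not those that led to the choice, it was 2.13 (SE 0.50). The adjusted p there was 0.71 in edgeR's quasi-likelihood test. Earlier results of these data were known at the choice, so the 7 dpi p-values are not independent of it. With the replicate block the 7 dpi log2 fold change was 2.21 (SE 0.40, adjusted p = 0.091). DESeq2 gave 2.19 with an adjusted p of 0.0065 at that time, so the call at 7 dpi depended on the tool. edgeR called 0 of 20093 genes at 7 dpi, while 1328 had an unadjusted p under 0.05, DESeq2 called 133 and limma on log2(TPM + 1) called 3. Within the 9 same-numbered pairs hbegfa was higher in the ablated library in 9 of 9, by 2.69 to 13.4 fold. The pairs of 2 and 4 dpi hold the values that led to its choice.

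**Figure D1:**
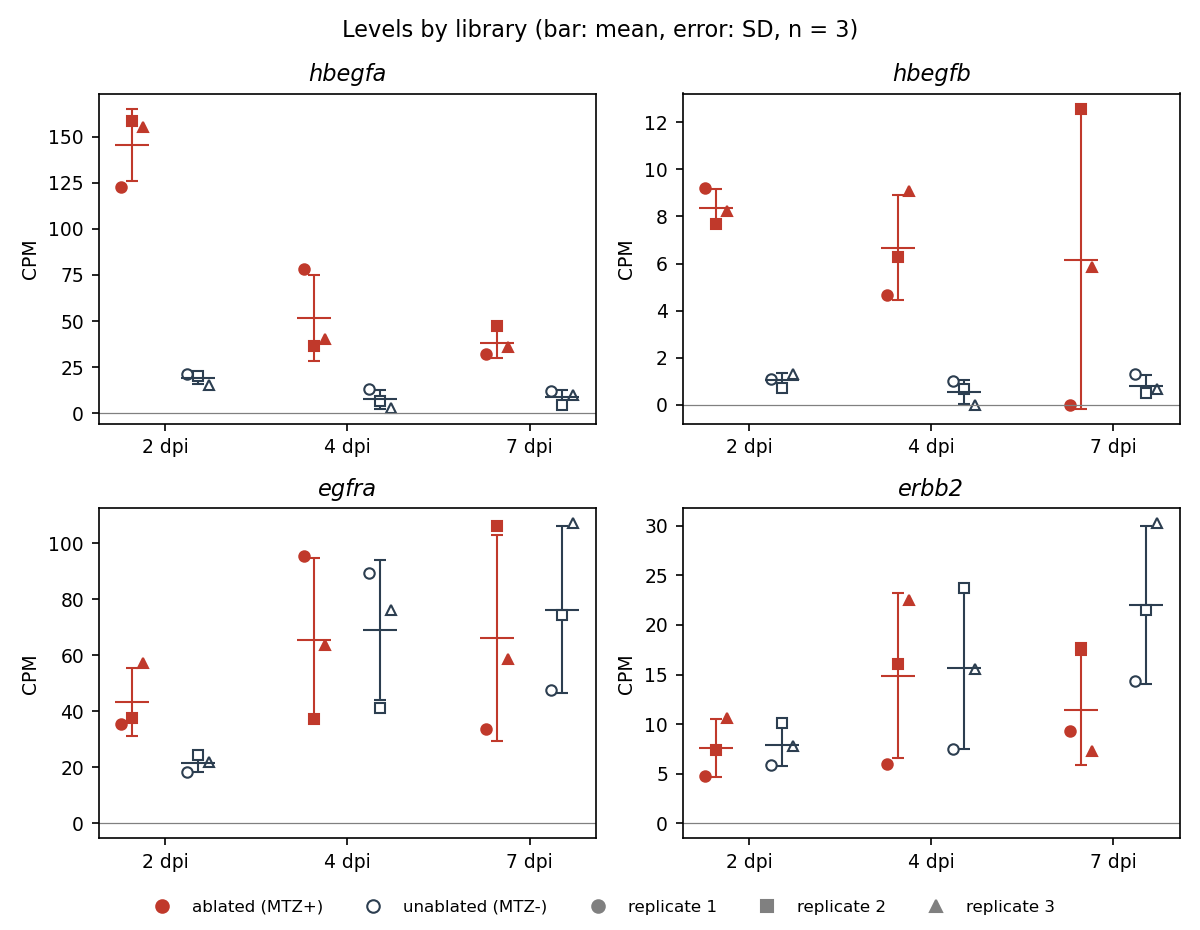
Levels of hbegfa, hbegfb, egfra and erbb2 in CPM (linear axes) in each of 18 libraries, with ablated libraries filled and unablated ones open, and mean and SD over 3 libraries. The hbegfa points of ablated libraries lie above all unablated ones at each time, and the erbb2 points of both groups overlap at each time.

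Mean levels of hbegfa were lower at 7 than at 2 dpi in both groups. Ablated libraries averaged 146 ± 19.7, 51.6 ± 23.3 and 38.3 ± 8.08 CPM at 2, 4 and 7 dpi (SD, n = 3 each). Unablated libraries averaged 18.9 ± 3.30, 7.54 ± 5.02 and 8.74 ± 3.91 CPM. The log2 difference of 7 against 2 dpi was -1.93 (SE 0.50) in ablated libraries, a description because it rests on the 2 dpi values. It was the 1 call among the 7 tested genes in that comparison, where 6.75% of all genes were called, and nothing is read from it. In unablated libraries it was -1.11 (SE 0.49, adjusted p = 0.20, edgeR). On the TPM scale unablated libraries overlapped between these times, with 6.73 to 21.7 TPM at 2 dpi and 4.08 to 13.0 TPM at 7 dpi. Ablated libraries did not overlap, with 67.9 to 137 TPM at 2 dpi and 34.2 to 35.3 TPM at 7 dpi. Each time was deposited as a table of its own, and time and any difference in preparation between the tables cannot be told apart.

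The second HB-EGF gene, hbegfb (ENSDARG00000031246, chromosome 21, 30124600 to 30132252, minus strand), had the same direction of difference at a lower level. On the TPM scale hbegfa stood 3.34 to 18.3 times above it in ablated libraries and 7.77 to 25.1 times in unablated libraries, in those where hbegfb had a count. At 2 dpi it had 9.23, 7.67 and 8.21 CPM in ablated libraries, against 1.11, 0.719 and 1.32 CPM in unablated libraries. At 4 dpi it had 4.65, 6.30 and 9.07 CPM in ablated libraries, against 1.01, 0.660 and 0 CPM in unablated libraries. The groups did not overlap at 2 or 4 dpi, where 10.5% and 13.7% of all tested genes separated upward. By 7 dpi hbegfb had 0, 12.6 and 5.84 CPM in ablated libraries, against 1.32, 0.496 and 0.656 CPM in unablated libraries, so ablated replicate 1 lay below all unablated ones and the others above. None of these differences passed the test, with log2 fold changes of 2.99 (SE 1.39, adjusted p = 0.29), 3.57 (SE 1.43, adjusted p = 0.32) and 2.89 (SE 1.39, adjusted p = 0.76) at 2, 4 and 7 dpi in edgeR. hbegfb was higher in the ablated library in 8 of 9 pairs and lower in the first pair of 7 dpi, where the ablated library had no count. In the 7 pairs with counts in both libraries the ratio was 4.61 to 25.3 fold. How the authors' counting split reads shared by similar genes is not given in the sources used here.

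tgfa and egf, which encode the ligands TGF-alpha and EGF, were near the limit of detection. tgfa (ENSDARG00000053939, chromosome 6, 40994873 to 41011845) held 288 counts over all 18 libraries, and 89 of them were in ablated 7 dpi replicate 3. It had 1, 7 and 5 counts in ablated libraries against 2, 0 and 14 in unablated ones at 2 dpi. At 4 dpi it had 2, 35 and 3 counts in ablated libraries against 6, 37 and 1 in unablated ones, and at 7 dpi 0, 7 and 89 in ablated against 4, 64 and 11 in unablated ones. Ablated and unablated libraries overlapped at each time.

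egf (ENSDARG00000052739, chromosome 14, 35938381 to 35985339) held 184 counts in 10 libraries. Its counts were 16, 0 and 0 in ablated against 0, 0 and 10 in unablated libraries at 2 dpi, and 6, 11 and 0 in ablated against 37, 36 and 11 in unablated libraries at 4 dpi. At 7 dpi they were 0, 32 and 24 in ablated libraries against 0, 0 and 1 in unablated libraries. The ratio of the summed 7 dpi counts at equal depth was 53.5 with a 95% exact binomial counting interval of 9.21 to 2149. That interval covers counting error alone, and edgeR's adjusted p for egf at 7 dpi was 0.74.

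On the TPM scale, hbegfa supplied most of the summed level of 7 ligands of the EGF receptor (hbegfa, hbegfb, tgfa, egf, btc, areg and epgn) in every ablated library. Its share was 83.5 to 86.4% in ablated and 62.5 to 74.2% in unablated libraries at 2 dpi. It was 62.3 to 79.3% in ablated and 30.6 to 48.3% in unablated libraries at 4 dpi. At 7 dpi the ranges met, with 54.9 to 90.3% in ablated and 19.3 to 58.3% in unablated libraries. The summed level of these ligands was 79.0 to 158 TPM in ablated and 10.8 to 29.3 TPM in unablated libraries at 2 dpi, and 37.9 to 64.2 TPM in ablated and 21.1 to 22.5 TPM in unablated libraries at 7 dpi. The shares at 2 and 4 dpi and the sum at 2 dpi hold the hbegfa values that led to its choice. They are given as a description.

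**Figure D2:**
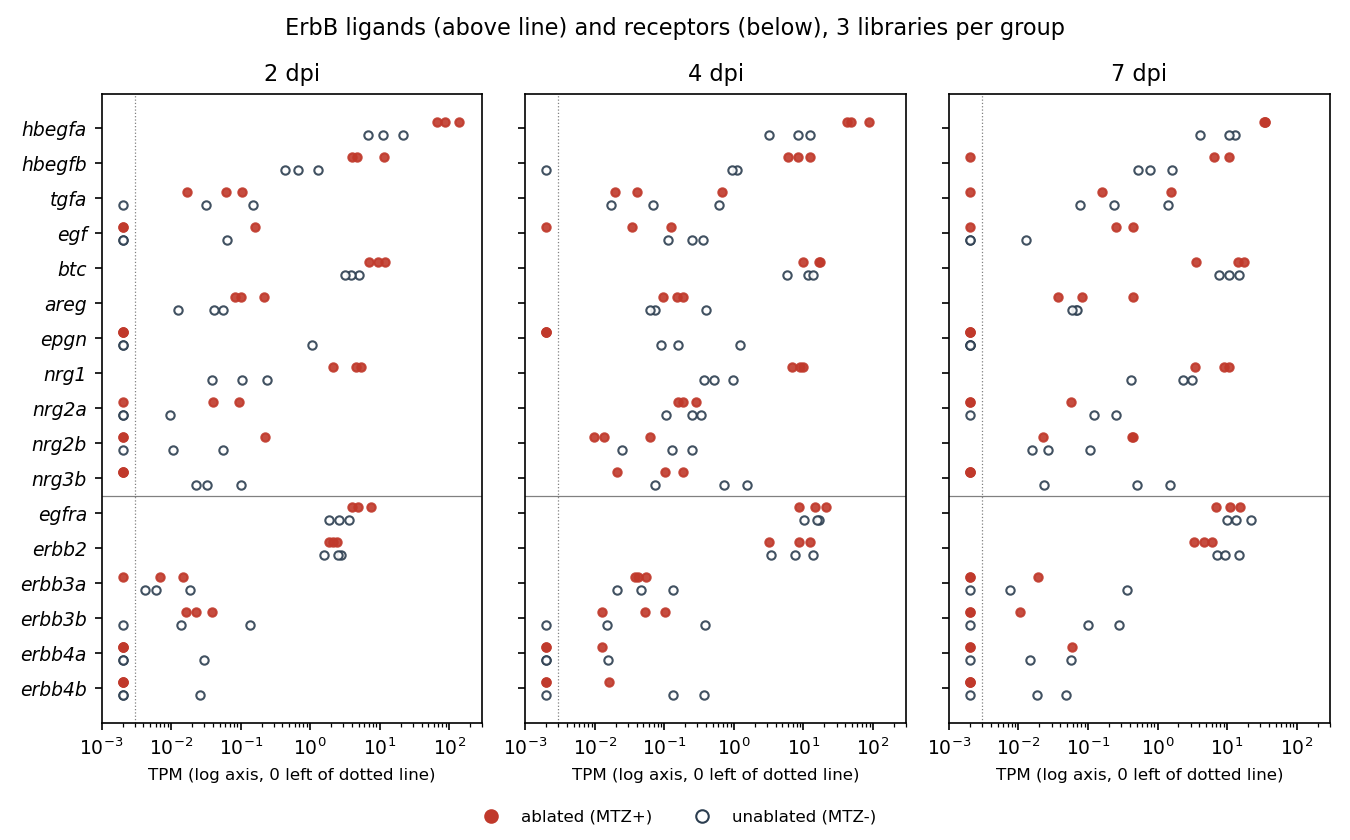
Level in TPM (log axis) of 11 ligand and 6 receptor genes in each library at 2, 4 and 7 dpi, with ablated libraries filled and above the unablated open ones. Points left of the dotted line are at 0, and hbegfa stands farthest right of all ligands in ablated libraries.

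Averaged over a group, hbegfa had 97.0, 60.3 and 34.9 TPM in ablated libraries at 2, 4 and 7 dpi, and 13.2, 8.09 and 9.23 TPM in unablated libraries. Among genes with a value, that placed it at the 94.5th, 92.2nd and 89.3rd percentile in ablated libraries, and at the 82.0th, 72.0th and 73.2nd in unablated ones. hbegfb averaged 6.79 ± 4.17 TPM in ablated and 0.798 ± 0.440 TPM in unablated libraries at 2 dpi (SD, n = 3 each). In ablated libraries of that time the order of mean TPM was hbegfa, btc, hbegfb, egfra, nrg1 and erbb2. Each neighbour from btc to erbb2 overlapped the next in range, and hbegfa lay above all of them. tgfa, egf, erbb3a and erbb3b followed, and none of them exceeded 0.163 TPM in an ablated 2 dpi library.

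Of the receptors, egfra (ENSDARG00000013847, chromosome 2, 3864809 to 3990426) encodes the EGF receptor to which HB-EGF binds. At 2 dpi it had 35.3, 37.7 and 57.4 CPM in ablated libraries, against 18.3, 24.4 and 22.0 CPM in unablated libraries, with no overlap. Of all tested genes, 10.5% separated upward in this way at 2 dpi. The log2 fold change of egfra was 1.01 (SE 0.47) with an adjusted p of 0.29 in edgeR, and 0.99 (SE 0.27, adjusted p = 0.031) with the replicate block. The block called 14.4% of all genes at 2 dpi. Each of the 3 pairs at 2 dpi was higher in the ablated library, and leaving out any 1 library in the fit without the block gave 0.80 to 1.15.

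At 4 dpi egfra had 95.5, 37.4 and 63.5 CPM in ablated libraries, against 89.4, 41.2 and 76.1 CPM in unablated libraries. At 7 dpi it had 33.6, 106 and 58.8 CPM in ablated libraries, against 47.5, 74.3 and 107 CPM in unablated libraries. The groups overlapped at both times, with log2 fold changes of -0.07 (SE 0.46, adjusted p = 0.98) and -0.21 (SE 0.46, adjusted p = 0.97) in edgeR. The ablation effect at 7 dpi minus that at 2 dpi was -1.22 (SE 0.66, adjusted p = 0.57), and -1.27 (SE 0.38, adjusted p = 0.091) with the block. With the block, 0 of the 7 tested genes were called for that change, where 4.29% of all genes were.

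In unablated libraries egfra was higher at 7 than at 2 dpi, with a log2 difference of 1.82 (SE 0.48, adjusted p = 0.046, edgeR), where 3.86% of tested genes were called in either direction. It was the only 1 of the 7 tested genes called there. The adjusted p ran from 0.035 to 0.21 with 1 library left out, and it missed the threshold in 13 of these 18 fits. The 5 fits that kept the call were those without ablated 2 dpi replicate 1 or 3, ablated 7 dpi replicate 1 or 2, or unablated 7 dpi replicate 1. In ablated libraries the difference of 7 against 2 dpi was 0.61 (SE 0.47, adjusted p = 0.48). The unablated 2 dpi libraries enter both the ablation effect at 2 dpi and this time difference.

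The ratio of hbegfa to egfra TPM separated the groups at each time. It was 14 to 21.8 in ablated and 3.56 to 5.98 in unablated libraries at 2 dpi. At 4 dpi it was 3.28 to 5.02 in ablated and 0.205 to 0.838 in unablated libraries. At 7 dpi it was 2.32 to 4.91 in ablated and 0.304 to 1.3 in unablated libraries, so hbegfa messages outnumbered egfra messages in all ablated libraries and in 1 of 3 unablated ones. These ratios follow from the hbegfa values that led to its choice and are given as a description.

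**Figure D3:**
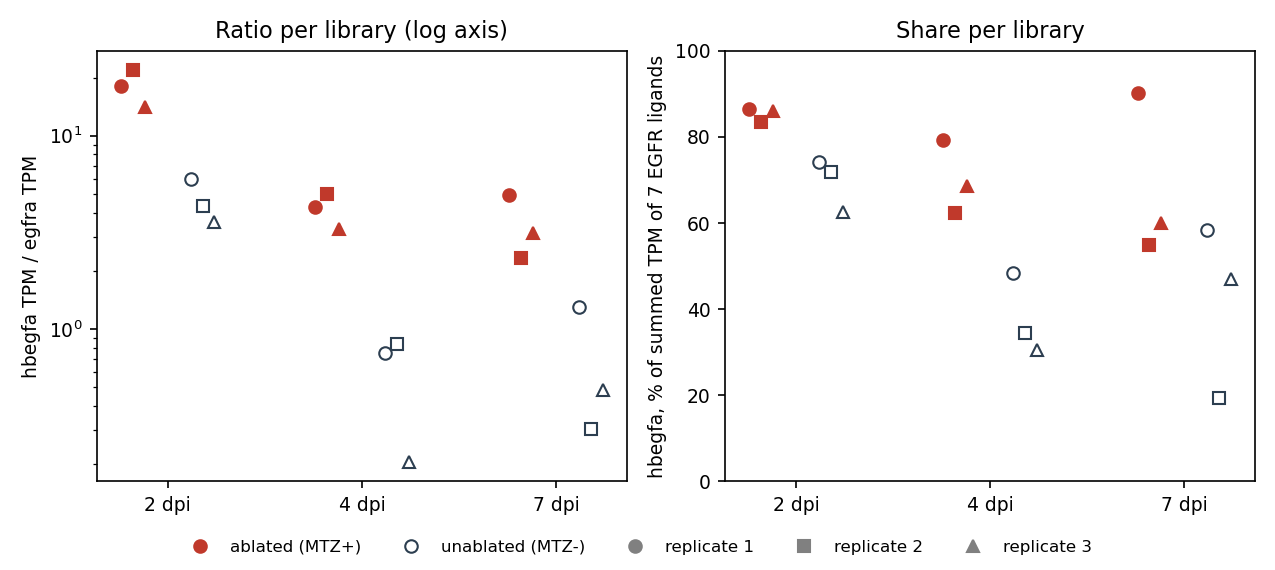
Left, ratio of hbegfa to egfra TPM per library on a log axis, and right, hbegfa as a percentage of the summed TPM of 7 ligands of the EGF receptor. The ratio is 2.32 or more in each ablated library, and the share is 54.9% or more.

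erbb2 (ENSDARG00000026294, chromosome 12, 9322473 to 9400384, minus strand), the partner receptor without a ligand, showed no called difference. It averaged 7.62 ± 2.89 CPM in ablated libraries and 7.92 ± 2.15 CPM in unablated ones at 2 dpi, and 14.9 ± 8.32 CPM in ablated and 15.6 ± 8.10 in unablated libraries at 4 dpi (SD, n = 3 each). By 7 dpi erbb2 had 9.31, 17.7 and 7.26 CPM in ablated libraries, against 14.4, 21.5 and 30.2 CPM in unablated libraries. The groups overlapped at each time, and the 7 dpi log2 fold change was -0.95 (SE 0.55, adjusted p = 0.81, edgeR). Unablated libraries at 7 against 2 dpi differed by 1.48 (SE 0.56, adjusted p = 0.14). On the TPM scale egfra and erbb2 were closest in unablated 2 dpi libraries, where their ratio was 1.01 to 1.31, against 2.11 to 3.07 in ablated libraries.

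Both erbb3 genes were near 0. erbb3a (ENSDARG00000006202, chromosome 6, 7309034 to 7374942) held 114 counts in all and did not pass the filter. It had 1, 0 and 3 counts in ablated and 3, 1 and 1 in unablated libraries at 2 dpi, and 11, 7 and 7 in ablated against 10, 20 and 3 in unablated ones at 4 dpi. By 7 dpi erbb3a had 3, 0 and 0 counts in ablated libraries against 1, 0 and 43 in unablated libraries, so unablated replicate 3 held nearly all of them.

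erbb3b (ENSDARG00000036993, chromosome 23, 25305870 to 25361125) held 111 counts. It had 2, 4 and 2 counts in ablated and 13, 0 and 2 in unablated libraries at 2 dpi, and 16, 1 and 6 in ablated against 2, 0 and 34 in unablated ones at 4 dpi. At 7 dpi it had 1, 0 and 0 counts in ablated libraries against 8, 0 and 20 in unablated libraries. There the ratio at equal depth, unablated over ablated, was 29.3 with a 95% counting interval of 4.85 to 1199, and edgeR gave an adjusted p of 0.76. erbb4a and erbb4b, the remaining receptor genes of the family, held at most 5 and 41 counts in any group.

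Called without the block were 1 of 7 tested genes at 2 dpi, where 2.25% of all genes were called, and 1 of 7 at 4 dpi, where 0.0946% were. That gene was hbegfa both times, so nothing is read from these counts. With the block, hbegfa and egfra were called at 2 dpi, where 14.4% of all genes were, and hbegfa at 4 dpi, where 8.62% were. Without the block, leaving out 1 library ended the 2 dpi call in 2 of 18 fits (without unablated 2 dpi replicate 2 or 3) and the 4 dpi call in 12 of 18. The hbegfa values at 2 and 4 dpi led to its choice, so nothing is read from its calls there in any of these fits. At 7 dpi 0 of 7 were called with or without the block, and the block called 1 gene, 4.98e-03% of all. The median log2 fold change of the 7 tested genes was 0.13, -0.07 and 0.01 at 2, 4 and 7 dpi, and that of all tested genes was -0.03, -0.07 and -0.0043.

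Of the other ligand genes, nrg1, which encodes the neuregulin that binds ErbB3 and ErbB4, rose at 2 dpi. It had 8.95, 8.74 and 27.7 CPM in ablated libraries, against 0.222, 0.988 and 0.194 CPM in unablated libraries. On the log2 scale it was 5.03 higher (SE 0.93, adjusted p = 0.016, edgeR). The adjusted p was 0.051 without unablated 2 dpi replicate 1, 0.061 without unablated 2 dpi replicate 3, and 0.056 when the 6 libraries of that time were fitted alone. At 4 dpi nrg1 had 19.1, 17.0 and 12.4 CPM in ablated libraries, against 1.16, 0.660 and 2.04 CPM in unablated libraries. Its log2 fold change there was 3.65 (SE 0.86, adjusted p = 0.086), and 3.77 (SE 0.70, adjusted p = 0.0096) with the block.

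At 7 dpi nrg1 had 7.18, 32.1 and 20.5 CPM in ablated libraries, against 0.841, 5.50 and 6.56 CPM in unablated libraries. The log2 fold change was 2.21 (SE 0.80, adjusted p = 0.71). The ablated library was higher in 9 of 9 pairs, by 3.12 to 143 fold. Ablated libraries averaged 15.1 ± 10.9, 16.2 ± 3.43 and 19.9 ± 12.5 CPM at 2, 4 and 7 dpi, and unablated libraries 0.468 ± 0.451, 1.29 ± 0.696 and 4.30 ± 3.04 CPM (SD, n = 3 each). The difference of 7 against 2 dpi was 0.40 (SE 0.77, adjusted p = 0.81) in ablated libraries and 3.22 (SE 0.86, adjusted p = 0.048) in unablated ones on the log2 scale. The call in unablated libraries was lost, with an adjusted p of up to 0.19, in 14 of 18 fits that left out 1 library. It was kept in the fits without ablated 2 dpi replicate 1 or 3, ablated 7 dpi replicate 1 or unablated 7 dpi replicate 1. The change of the ablation effect of nrg1 from 2 to 7 dpi, -2.82 (SE 1.13, adjusted p = 0.41), did not pass the test.

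btc, the betacellulin gene, averaged 13.0 ± 5.70 CPM in ablated libraries and 5.36 ± 1.03 CPM in unablated ones at 2 dpi (SD, n = 3 each). The groups did not overlap, and 10.5% of all tested genes separated upward at 2 dpi. The log2 fold change of btc, 1.28 (SE 0.60), had an adjusted p of 0.30 in edgeR, or 0.059 with the block. It was higher in the ablated library in 8 of 9 pairs. areg, the amphiregulin gene, stood below 1 CPM on average in every group. epgn had no count in any ablated library at 2, 4 or 7 dpi, and the 25 counts of it at 2 dpi lay in 1 unablated library. nrg3b had no count in ablated 2 or 7 dpi libraries, and at 7 dpi unablated libraries held 25, 64 and 1 counts of it (adjusted p = 0.71 in edgeR, 0.18 with the block). Of 6 tested other ligands, 1 was called at 2 dpi, 0 at 4 dpi and 0 at 7 dpi, and with the block 1, 1 and 0. The shares of all genes called were 2.25%, 0.0946% and 0%, and with the block 14.4%, 8.62% and 4.98e-03%.

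**Figure D4:**
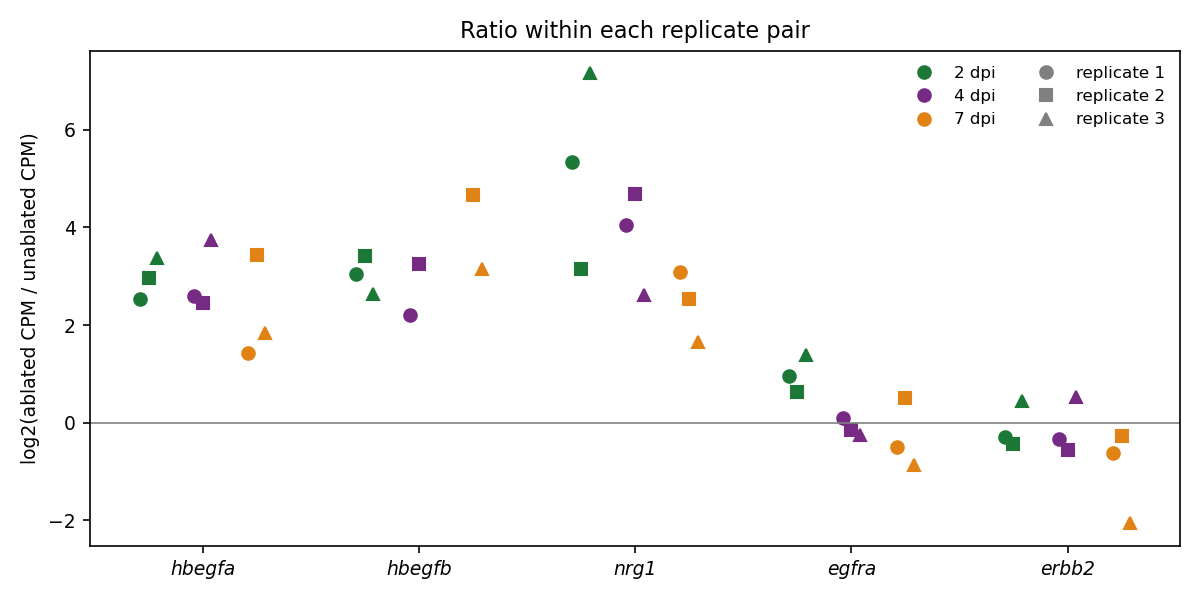
Log2 ratio of ablated to unablated CPM within each same-numbered pair of libraries for hbegfa, hbegfb, nrg1, egfra and erbb2, coloured by time, with pairs lacking a count in 1 library left out. All points shown for hbegfa, hbegfb and nrg1 lie above 0, the pair not shown in which hbegfb was lower had 0 CPM in the ablated and 1.32 CPM in the unablated library, and egfra points lie above 0 in 5 of 9 pairs and erbb2 points in 2 of 9.

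Pathway genes, from other ligands and their shedding to genes that respond to ERK, were counted by role over 123 tested genes outside the 8. The lists were chosen with earlier results of these data known. Without the block 2 were higher (nrg1 and fosl1b) and 1 lower (pdpk1a) at 2 dpi, where 1.39% of all genes were higher and 0.856% lower. At 4 dpi, where 0.0647% were higher and 0.0299% lower, 0 passed, and at 7 dpi 0 passed. With the block 14 were higher and 12 lower at 2 dpi, against 7.56% higher and 6.87% lower over all genes. At 4 dpi 6 were higher and 12 lower with the block, against 4.69% higher and 3.93% lower over all genes, and 0 passed at 7 dpi. Values in the next paragraphs are from the fit with the block unless stated, and for most of these genes the fit without it gave no call.

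Among 13 tested genes for ligand shedding and trafficking, adam17a, the main sheddase of HB-EGF and TGF-alpha, rose at 2 dpi. It averaged 75.0 ± 12.1 CPM in ablated libraries and 31.4 ± 6.91 CPM in unablated ones (SD, n = 3 each), a blocked log2 fold change of 1.27 (SE 0.35, adjusted p = 0.036, against 0.18 without the block). rhbdf1a, which encodes an iRhom protein that carries this sheddase to the surface, rose at 4 dpi. It averaged 31.8 ± 4.17 CPM in ablated libraries and 8.04 ± 6.31 CPM in unablated ones, a blocked log2 fold change of 2.29 (SE 0.56, adjusted p = 0.031, against 0.18 without the block). No other gene of the 13 passed at either time in either fit, and both of these overlapped between groups at 7 dpi. The block called 7.56% of all genes higher at 2 dpi and 4.69% at 4 dpi.

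Receptor adaptors were lower where they passed, 4 of 13 tested at 2 dpi and 2 of 13 at 4 dpi. Of all genes 6.87% were lower at 2 dpi and 3.93% at 4 dpi. gab1, a docking protein that recruits PI3 kinase and SHP2, averaged 52.5 ± 13.2 CPM in ablated libraries and 103 ± 13.6 CPM in unablated ones at 2 dpi (log2 -0.99, SE 0.19, adjusted p = 0.0067). At 4 dpi gab1 averaged 75.9 ± 13.3 CPM in ablated libraries and 197 ± 44.1 CPM in unablated ones (log2 -1.37, SE 0.19, adjusted p = 0.0035). sos1, the exchange factor that loads RAS with GTP, fell by 1.45 (SE 0.31, adjusted p = 0.011) at 2 dpi and by 2.04 (SE 0.32, adjusted p = 0.0052) at 4 dpi. nck1a, an adaptor towards the actin skeleton, and ptpn11b, a SHP2 phosphatase gene, fell at 2 dpi by 2.50 (SE 0.41, adjusted p = 0.0029) and 1.47 (SE 0.26, adjusted p = 0.0039). Without the block the adjusted p of these 4 genes was 0.065 to 0.30 at 2 dpi.

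In the RAS and MAP kinase relay, 2 of 18 tested genes rose and 2 fell at each of 2 and 4 dpi. The shares over all genes were 7.56% higher and 6.87% lower at 2 dpi, and 4.69% and 3.93% at 4 dpi. map2k1, which encodes the ERK kinase MEK1, averaged 107 ± 103 CPM in ablated libraries and 36.2 ± 24.3 CPM in unablated ones at 2 dpi, with overlap, and 176 ± 44.9 CPM in ablated and 61.4 ± 13.9 CPM in unablated ones at 4 dpi, without overlap. Upward separation was seen in 13.7% of all tested genes at 4 dpi. The blocked log2 fold change of map2k1 was 1.33 (SE 0.22, adjusted p = 0.0028) at 2 dpi and 1.51 (SE 0.22, adjusted p = 0.0037) at 4 dpi. rps6ka1, which encodes a kinase downstream of ERK, fell at 2 dpi by 3.81 (SE 0.77, adjusted p = 0.0078). At 4 dpi kras rose by 1.91 (SE 0.46, adjusted p = 0.030) and map2k2a, the MEK2 gene, fell by 0.82 (SE 0.16, adjusted p = 0.013).

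In the PI3 kinase and Akt relay of 17 tested genes, those that passed were lower, 3 at 2 dpi and 3 at 4 dpi. With the block 6.87% of all genes were lower at 2 dpi and 3.93% at 4 dpi. pdpk1a, which encodes the kinase PDK1 that activates Akt, averaged 6.16 ± 2.14 CPM in ablated libraries and 25.3 ± 6.86 CPM in unablated ones at 2 dpi. Its log2 fold change was -2.04 (SE 0.42, adjusted p = 0.020) without the block. The adjusted p was 0.052 to 0.088 without ablated 2 dpi replicate 2 or without unablated 2 dpi replicate 1, 2 or 3. pik3r2, a regulatory subunit of PI3 kinase, fell by 0.86 (SE 0.18, adjusted p = 0.011) at 2 dpi and 0.81 (SE 0.18, adjusted p = 0.024) at 4 dpi with the block. pik3r3b fell by 1.12 (SE 0.28, adjusted p = 0.020) at 2 dpi and pik3r1 by 0.76 (SE 0.20, adjusted p = 0.045) at 4 dpi.

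Of 27 tested negative regulators, 3 were higher and 1 lower at 2 dpi, and 4 were lower at 4 dpi. The shares over all genes were 7.56% higher and 6.87% lower at 2 dpi, and 3.93% lower at 4 dpi. dusp6, an ERK phosphatase that is itself induced by ERK, averaged 118 ± 37.1 CPM in ablated libraries and 50.1 ± 28.3 CPM in unablated ones at 2 dpi (log2 1.33, SE 0.24, adjusted p = 0.0040, against 0.36 without the block). spry4, a Sprouty inhibitor of RAS activation, rose by 1.76 (SE 0.40, adjusted p = 0.014) at 2 dpi. dusp2, a nuclear phosphatase of MAP kinases, fell by 1.99 (SE 0.46, adjusted p = 0.016) at 2 dpi and 2.37 (SE 0.48, adjusted p = 0.015) at 4 dpi. cblb, a ubiquitin ligase that marks receptors for removal, and spry2 fell at 4 dpi by 1.64 (SE 0.36, adjusted p = 0.019) and 1.49 (SE 0.40, adjusted p = 0.045).

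Of 29 tested genes that respond to ERK in other systems, 7 rose and 2 fell at 2 dpi, and 2 rose and 1 fell at 4 dpi. The shares over all genes were 7.56% higher and 6.87% lower at 2 dpi, and 4.69% and 3.93% at 4 dpi. fosl1b, an AP-1 subunit gene, averaged 54.1 ± 35.7 CPM in ablated libraries and 0.429 ± 0.220 CPM in unablated ones at 2 dpi. Its log2 fold change was 6.99 (SE 1.43, adjusted p = 0.020) without the block, and leaving out ablated 2 dpi replicate 2 or 3 or any unablated 2 dpi library gave an adjusted p of 0.050 to 0.089. fosl1a averaged 439 ± 237 CPM in ablated libraries and 41.0 ± 36.5 CPM in unablated ones (blocked log2 3.70, SE 0.67, adjusted p = 0.0047). fosl2 averaged 139 ± 7.63 CPM in ablated libraries and 29.7 ± 12.7 CPM in unablated ones (blocked log2 2.31, SE 0.44, adjusted p = 0.0058).

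epha2a, an ephrin receptor gene, averaged 5.30 ± 0.697 CPM in ablated libraries and 0.132 ± 0.228 CPM in unablated ones at 2 dpi (blocked log2 6.46, SE 1.55, adjusted p = 0.018). Its unablated median at 2 dpi was 0 CPM, with 16 counts in all, and unablated 4 dpi libraries held 7 counts. The sizes of its log2 fold changes therefore rest on few counts. Without the block, leaving out 1 library gave 4.68 to 10.6 at 2 dpi. At 4 dpi fosl1b and epha2a were again higher with the block, by 6.06 (SE 0.83, adjusted p = 0.0031) and 6.74 (SE 1.49, adjusted p = 0.020). egr1, an immediate early gene of the same list, went the other way. It averaged 103 ± 41.5 CPM in ablated libraries and 265 ± 25.5 CPM in unablated ones at 2 dpi (blocked log2 -1.45, SE 0.38, adjusted p = 0.027). egr1 was lower in the ablated library in 9 of 9 pairs and fosl1b higher in 9 of 9, of which 2 had no count in the unablated library. Without the block, the median log2 fold change of the 29 genes was 0.49 at 2 dpi, -0.28 at 4 dpi and -0.84 at 7 dpi. Over all genes it was -0.03, -0.07 and -0.0043. With the block the 7 dpi median of the 29 genes was -0.66, and 0 passed at 7 dpi in either fit.

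**Figure D5:**
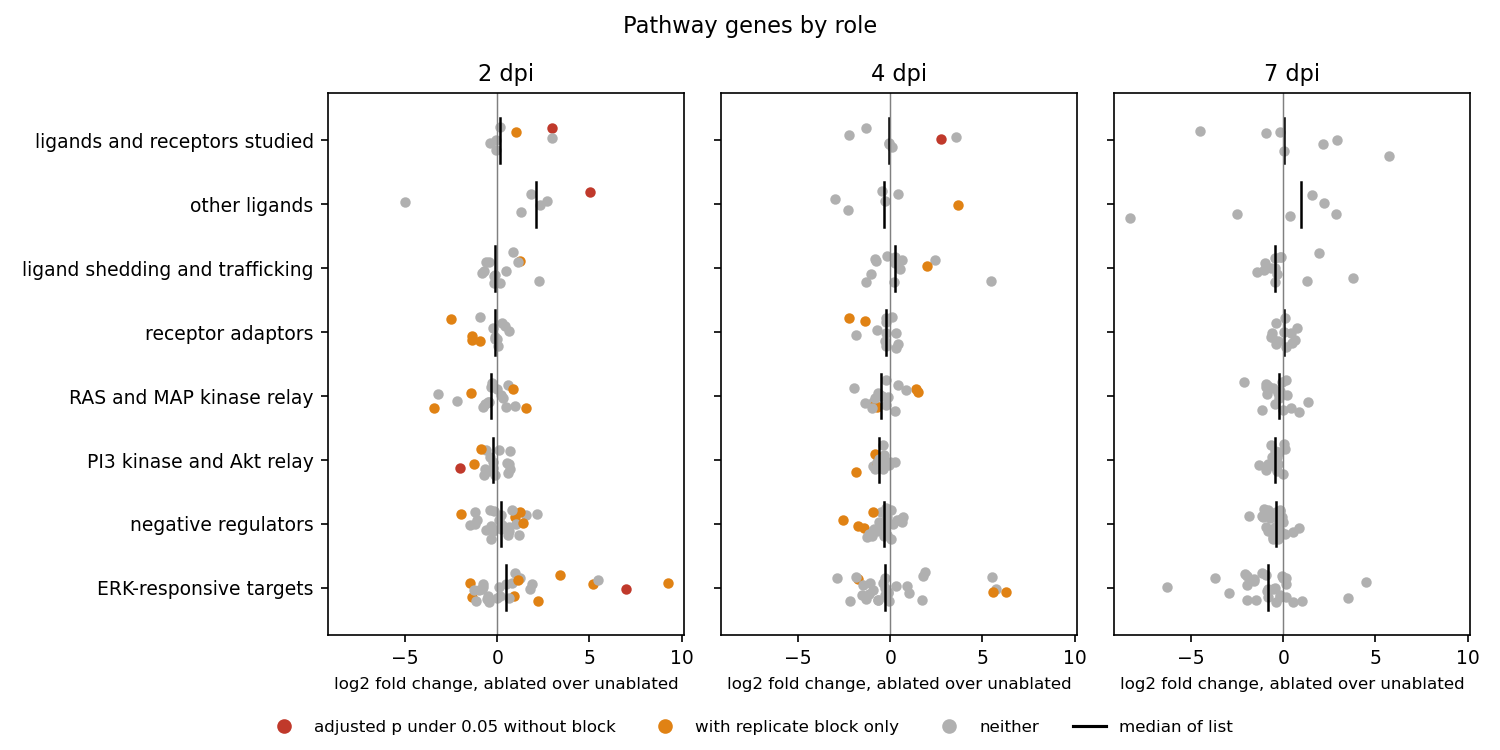
Log2 fold change, ablated over unablated, of each tested gene by role at 2, 4 and 7 dpi, from the fit without the block, with red for genes past the threshold in that fit, orange with the block alone and grey for neither. Bars are list medians; values of genes with no count in a group depend on the prior count and are no bound. Few points are red, and none is coloured at 7 dpi.

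Genes were ranked by likeness to hbegfa over the 18 libraries, with those under a mean of 5 CPM or with clone names left out. On log2 CPM the closest were aanat1 (Pearson r = 0.945), snu13a (0.927), eif2s1a (0.917), polr2h (0.906), txn (0.895) and ruvbl1 (0.892). The libraries share treatment, time and depth, so this is a description. aanat1, the enzyme gene of melatonin synthesis, averaged 41.7 ± 11.2 CPM in ablated libraries and 4.64 ± 0.960 CPM in unablated ones at 2 dpi (SD, n = 3 each). By 7 dpi aanat1 averaged 9.90 ± 7.77 CPM in ablated and 2.38 ± 1.24 CPM in unablated ones. snu13a, eif2s1a, polr2h and ruvbl1 encode parts of the splicing, translation, transcription and chromatin machinery, and txn encodes thioredoxin. hbegfb had r = 0.726 with hbegfa, nrg1 0.573, egfra -0.119 and erbb2 -0.523.

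Markers of other cell types were measured beside these genes. Keratinocyte and corneal epithelium markers, 23 in all, summed to 142 to 398 CPM in ablated libraries and 58.8 to 237 CPM in unablated ones at 2 dpi, and overlapped at 4 and 7 dpi too. Without the block, 6 of 19 tested had a positive log2 fold change, called or not, at 2 dpi, 11 at 4 dpi and 9 at 7 dpi. Their median log2 fold change at 2 dpi was -1.33 without the block and -1.24 with it, so most were lower there. Of the 19, lye, a Ly6-type gene of surface epithelium, was called higher at 2 dpi (log2 4.89, SE 1.22, adjusted p = 0.044). That call was lost, with an adjusted p of up to 0.14, without any 1 of the 6 libraries of 2 dpi, without any ablated 4 dpi library and without ablated 7 dpi replicate 2. With the block 1 of the 19 was higher and 1 lower at 2 dpi, lye by 4.86 (SE 1.26, adjusted p = 0.026) and the keratin gene krt97 by -3.57 (SE 0.88, adjusted p = 0.024) on the log2 scale. At 4 dpi the block called lye alone, higher by 7.45 (SE 1.47, adjusted p = 0.013). At 2 dpi lye averaged 11.7 ± 6.53 CPM in ablated libraries and 0.397 ± 0.323 CPM in unablated ones, while krt4 averaged 0.282 ± 0.411 CPM in ablated and 16.5 ± 28.1 CPM in unablated ones. The marker agr1 was at 0 in both groups at 2 dpi. The part of such cells in the hbegfa and nrg1 values was not tested.

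Müller glia markers, 12 in all, summed to 935 to 2437 CPM in ablated libraries and 4094 to 6983 CPM in unablated ones at 2 dpi. Ablated and unablated sums overlapped at 4 dpi (6171 to 7901 against 6804 to 16140 CPM) and at 7 dpi (4653 to 12820 against 6389 to 8711 CPM). Without the block, 4 of the 12 had a positive log2 fold change at 2 dpi, 9 at 4 dpi and 9 at 7 dpi, and 0 were called. The block called 2 lower at 2 dpi and 1 lower at 4 dpi. Macrophage and microglia markers, 22 in all, summed to 2.84 to 27.5 CPM in ablated libraries and 3.23 to 34.0 CPM in unablated ones at 2 dpi, and 4 of them were at 0 in ablated and 3 in unablated ones. At 4 dpi they summed to 19.9 to 209 CPM in ablated and 14.5 to 87.6 CPM in unablated libraries. At 7 dpi the sums were 13.5 to 814 CPM in ablated and 22.8 to 90.7 CPM in unablated libraries, with 814 CPM in 1 library. Without the block, 6 of 20 tested had a positive log2 fold change at 2 dpi, 18 at 4 dpi and 19 at 7 dpi. At each time 0 were called in either fit. Fibroblast markers, 17 measured, summed to 5.81 to 28.1 CPM in ablated libraries and 19.4 to 51.4 CPM in unablated ones at 2 dpi. Their sums were 23.1 to 36.3 CPM in ablated and 4.41 to 13.1 CPM in unablated libraries at 4 dpi. By 7 dpi they were 23.4 to 45.5 CPM in ablated and 6.38 to 12.7 CPM in unablated libraries. Of 11 tested, 5 had a positive log2 fold change at 2 dpi, 8 at 4 dpi and 6 at 7 dpi without the block. With the block these counts were 4, 8 and 4, and 1 was called higher, at 4 dpi. The part of Müller glia, macrophages and fibroblasts in the values of hbegfa, hbegfb and nrg1 was not tested.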

How the data were processed

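The authors deposited 1 table per time with total counts and TPM per gene from paired, trimmed reads, per the file headers. The counts are whole numbers of reads per gene, not normalized, and TPM are the authors' own values. Gene positions follow GRCz10, per the submitters' processing notes. The sources used here do not give the aligner, the counting rule or the annotation release. Per the labels' protocols, cDNA came from SMART-Seq v4 and the libraries from Nextera XT. All count columns were matched to a sample, and 0 were left over. Unablated 4 dpi replicate 1 carries the word positive in its sequencing name, which its label calls a naming error, and the label was followed.

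Counts were filtered with filterByExpr by group, scaled by TMM and fitted with edgeR 4.0.16 (glmQLFit with robust dispersion) on 6 group means over 18 libraries, with 12 residual degrees of freedom. SE is the log2 fold change divided by the root of F. Alternatives used DESeq2 1.42.0 and limma 3.58.1 on log2(TPM + 1) in R 4.3.3. The limma fit took genes with at least 1 TPM in 3 libraries, so its calls are out of a different set of genes. The replicate block added 9 pairs and left 6 degrees of freedom. After group means were removed, same-numbered ablated and unablated libraries correlated at 0.187 to 0.593, and other numbers at -0.44 to 0.183. The numbers were therefore taken as pairs. Removing a mean of 3 libraries by itself lowers the values for other numbers. At 2 dpi replicates 2 and 3 correlated across groups at 0.183 and 0.157, against 0.235 and 0.369 for their own numbers. The sequencing names of these libraries share a date-like string, so pairing is least clear there. Time differences could not be fitted with the block.

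The 8 genes and the pathway and marker lists were chosen with earlier results of these data known. From each role list, up to 4 genes past the threshold without the block and up to 3 more with it were named per comparison. Where none passed, the 2 with the highest TPM were named. One gene that this rule picked is not reported here. Genes most like hbegfa were the 6 with the highest Pearson r among tested genes of at least 5 CPM whose symbol is not a clone name. Names outside this rule (btc, areg, epgn, nrg3b, cd9a, dusp7, etv5b, markers) were chosen after their values were seen. In simulated data, dispersions came from the fit over all 18 libraries, and the 2 dpi comparison was tested. Of the changes put in, 18% of 4-fold, 72% of 8-fold, 90% of 16-fold and 96% of 32-fold ones were called. The run held 19492 genes, with 1 false call. Changed genes were drawn only from those above 5 CPM. The rates therefore do not cover genes of lower level, hbegfb, tgfa, egf and erbb3b among them. The simulated libraries were independent, while same-numbered real ones deviated together. Intervals cover counting error only.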

Additional observations from a re-analysis of the deposited data

Results flagged for a closer look

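The change of the ablation effect from 2 to 7 dpi, a test of the difference itself in edgeR with the replicate block, passed for 9 of 123 tested genes of the receptor pathway, while the fit without the block called 0 of 20093 genes for this change, DESeq2 285 and limma on TPM 2. At an unadjusted p under 0.05 the fit without the block held 2060 genes. With the block 862 genes passed, 4.29% of those tested. None of the 7 tested ligands and receptors passed.

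The effect was lower at 7 than at 2 dpi for dusp6 by a log2 difference of -1.92 (SE 0.33, adjusted p = 0.015), for fosl1a by -4.38 (SE 0.92, adjusted p = 0.029), for fosl2 by -2.80 (SE 0.62, adjusted p = 0.033) and for spry4 by -2.48 (SE 0.55, adjusted p = 0.034). It was also lower for etv5b by -2.94 (SE 0.51, adjusted p = 0.015) and for dusp7 by -1.58 (SE 0.32, adjusted p = 0.023). It was higher at 7 than at 2 dpi for nck1a by 3.01 (SE 0.57, adjusted p = 0.020), for ptpn11b by 1.64 (SE 0.36, adjusted p = 0.033) and for cd9a by 1.90 (SE 0.31, adjusted p = 0.013). The causes were not tested.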

How the results depend on the processing

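With all other choices kept, the count of called genes moved most with the replicate block and with DESeq2. Ranges with 1 library left out are all from edgeR without the block. Neither the block, DESeq2 nor limma was run with a library left out. At 2 dpi edgeR's 452 calls became 2901 with the block, 1759 in DESeq2 and 78 when the 6 libraries of that time were fitted alone, and 19 to 581 with 1 library left out. At 4 dpi 19 calls became 1732 with the block, 717 in DESeq2, 228 in limma on TPM, 220 with 6 libraries alone, 35 with no filter, 30 with at least 1 CPM in 3 libraries, 10 without all first replicates, and 0 to 46 with 1 left out. At 7 dpi 0 calls became 1 with the block, 133 in DESeq2, 3 in limma, and 0 to 3 with 1 left out. The change from 2 to 4 dpi gave 16 calls with the block, 26 in DESeq2 and 1 in limma (0 with 1 left out), and the change from 2 to 7 dpi 862, 285 and 2 (0 to 2). For 7 against 2 dpi, ablated libraries gave 3144 calls in DESeq2 against 1356 in edgeR (443 to 1656 with 1 left out). Unablated libraries gave 2569 in DESeq2 and 1256 in limma against 776 (0 to 1369).

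Of the 7 tested ligands and receptors, 2 (hbegfa and egfra) were called with the block at 2 dpi, where 14.4% of all genes were. At 4 dpi 0 were called without first replicates or with 6 libraries alone. DESeq2 called 1, hbegfa, at 7 dpi, where it called 133 of 20093 genes. The hbegfa values at 2 and 4 dpi led to its choice, so nothing is read from its calls there. With 1 library left out of the fit without the block, 0 to 1 were called at 2 dpi, 0 to 1 at 4 dpi and 0 at 7 dpi. At 7 against 2 dpi limma called 0 in ablated libraries (0 to 1) and 2 in unablated ones, where 0 were called with no filter (0 to 1). tgfa, egf and erbb3b were under 1 TPM in too many libraries to enter the limma fit. Other pathway genes gave 26 calls with the block, 15 in DESeq2 and 1 with 6 libraries alone at 2 dpi (0 to 4), 18, 9 and 1, with 4 in limma, at 4 dpi (0 to 1), and 3 in DESeq2 at 7 dpi (0). The block changed no call of hbegfb, erbb2 or hbegfa at 7 dpi.

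Reversals touched log2 differences that had not passed a test. egfra at 4 dpi became 0.0047 in limma and ran from -0.40 to 0.21 with 1 library left out, with 0.19 and 0.022 among these, and at 7 dpi from -0.73 to 0.16, with 0.11 among these. erbb2 at 2 dpi ran from -0.33 to 0.20, with 0.18 and 0.0073 among these, and at 4 dpi from -0.50 to 0.43, with 0.34 among these and 0.0053 without all first replicates. hbegfb at 7 against 2 dpi ran from -1.57 to 0.15 in ablated libraries and became 0.13 in limma in unablated ones. The causes were not tested. Low counts limit tgfa, egf, erbb3a and erbb3b, for which no alternatives were run gene by gene.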
